A study of Mus musculus with 20 samples.

Results

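The step from stage II+III to stage IV of red cell maturation was examined in mice lacking both mDia1 and miR-146a, as 4 of the 20 arrays of the series: 2 labelled DKO-II+III and 2 labelled DKO-IV. The 4 arrays were taken by their labels, which combine genotype and stage, and all 19572 probe sets with 1 gene symbol were compared. The DKO arrays held erythroblasts of female C57BL/6 mice, aged 1 year, with the genotype mDia1-miR-146a double KO. Stage II+III stands for basophilic and polychromatic erythroblasts together and stage IV for orthochromatic erythroblasts. The comparison groups, DWT-II+III and DWT-IV, held the same stages from double WT C57BL/6 mice of the same age, 1 male and 1 female array at each stage. The in vivo samples came from 2 mice of each genotype, the mice were described as healthy, and the labels do not say which cell type the deletions were made in, how the stages were isolated, or which DKO arrays of different stages came from the same mouse. The p-values therefore rest on the spread between arrays of 2 mice a group, pooled over all 6 in vivo groups. Arrays of different stages entered the fit as independent, although they came from only 2 mice of each genotype. Each array received 700 pg of total RNA with an integrity number above 8.5, amplified with a Pico kit, and there were no technical replicates.

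Erythroblasts pass from large, dividing, basophilic cells to small orthochromatic cells that fill with haemoglobin, condense their chromatin, lose organelles and finally expel the nucleus. The red cell membrane skeleton, built of spectrin, ankyrin, band 3 and their partners, is assembled over the same stages, and the transcription factors GATA1 and KLF1 drive much of the programme. mDia1, a formin that nucleates actin filaments, is encoded by Diaph1. miR-146a restrains innate immune signalling through Traf6 and related transcripts. The deleted miRNA is shown beside miR-146b, whose seed is identical and whose gene lies elsewhere, since transcripts with a match to the seed can be bound by either; capitals mark the seed, bases 2 to 8 (RefSeq, GRCm38.p6; miR-146a-5p at chr11:43374435-43374456, minus strand; miR-146b-5p at chr19:46342790-46342811, plus strand).
mmu-miR-146a-5p: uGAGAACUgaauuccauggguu
mmu-miR-146b-5p: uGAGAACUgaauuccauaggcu

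Values are log2 signals, so that a difference of 1 is a doubling on the array scale, and signals are compared within a probe set only. An array's background level was set at the 95th percentile of its 23 background probe sets, 7.45 and 7.62 in DKO-II+III and 7.62 in each DKO-IV array. Over the 20 arrays, 34.9% to 43.0% of the probe sets with a symbol exceeded it. DKO-I replicate 2 stood apart from the rest, with a positive control median of 10.04 against 10.81 to 11.48 elsewhere, and it entered the estimate of the spread but not the means compared here. Diaph1, the targeted gene, read 7.0 and 7.59 in DKO-II+III and 7.22 and 6.87 in DKO-IV, at or below background in all 4 arrays. In double wild type it read 10.41 and 11.07 at II+III and 9.69 and 9.29 at IV. The Diaph1 signals went with the genotype labels; which exons the deletion removes, and whether the probes match them, is not given in the sources used here.

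The arrays of a DKO group were not alike in every respect. The 2 DKO-II+III arrays correlated at r = 0.970 across probe sets and the 2 DKO-IV arrays at 0.981. DKO-II+III replicate 1 correlated at 0.983 with both DWT-I arrays and at 0.963 to 0.976 with the DWT-II+III arrays, and replicate 2 at 0.961 to 0.962 and 0.946 to 0.955. By this measure each DKO-II+III array was nearer to the wild-type arrays of stage I than to those of its own labelled stage. Within DKO-II+III, 393 probe sets differed by more than 2 between the arrays, and 219 within DKO-IV, against 61 and 161 in the DWT groups. Chosen after their values were seen, Jchain, the joining chain of antibodies, read 13.55 and 5.66 in DKO-II+III and 9.87 and 5.35 in DKO-IV. The stem cell factor receptor gene Kit read 14.46 and 10.37, then 12.29 and 6.00, and the eosinophil gene Epx 12.04 and 6.72, then 6.84 and 5.24. Each of these was lower in replicate 2 of both stages. In the other direction, the small GTPase gene Rhoc read 7.28 and 14.06, then 7.72 and 10.91. C1qb, on the list of monocyte and macrophage markers, read 8.70 and 13.20, then 9.17 and 10.10. Of the 393 probe sets that differed within DKO-II+III, 175 were lower and 218 higher in replicate 2.

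In the double knockout, 20 of 25 red cell membrane genes, 17 of 29 G2 and M genes, 13 of 28 erythroid regulators and 8 of 18 haem synthesis genes rose from II+III to IV, and 11 of 16 neutrophil markers and 5 of 11 granulocyte progenitor markers fell. Of 19572 probe sets, 804 rose and 716 fell (limma, Benjamini-Hochberg adjusted p under 0.05), which is 7.77% of all in either direction, 4.11% rising and 3.66% falling. The median log2 change over all probe sets was 0.06. The 2 arrays of each group did not overlap in any of the 1520, a pattern that 56.9% of all probe sets shared (31.6% with both DKO-IV arrays above, 25.3% with both below). The smallest adjusted p was 0.0024, and 4422 probe sets had an unadjusted p under 0.05. Errors are standard errors of the log2 change from the fit, with 2 arrays a group throughout, and a log2 change is called a rise or a fall only where it passed. In bulk samples such as these, fewer cells of a type and less RNA per cell cannot be told apart. The count of 1520 fell to 609 and 630 without DKO-II+III replicates 1 and 2 and to 437 and 157 (118 rising and 39 falling) without DKO-IV replicates 1 and 2, and it was 3618 (1700 and 1918), including all 1520, without the DKO-I array that stood apart. Quantile normalization gave 875 rising and 581 falling.

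**Figure D1:**
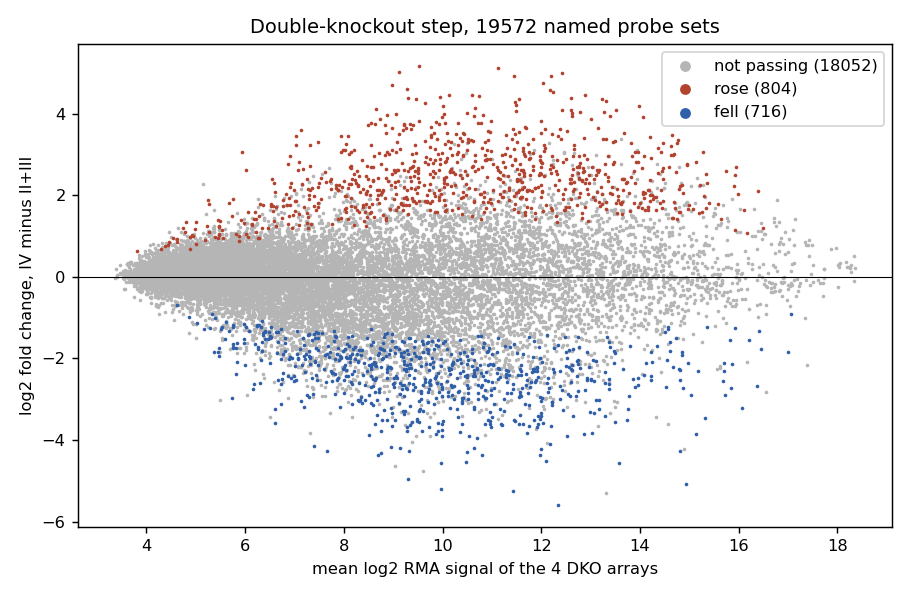
Log2 fold change from DKO-II+III to DKO-IV (vertical) against the mean log2 signal of the 4 DKO arrays (horizontal), with 1 point for each of 19572 named probe sets. The 804 that rose are red, the 716 that fell are blue, and the other probe sets are grey. Among the genes named by the rule, changes reach 5.17 upward and -5.59 downward.

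The 12 largest rises among named genes were led by Apol8, which read 7.61 and 6.29 in DKO-II+III and 11.94 and 12.29 in DKO-IV, a log2 change of 5.17 ± 0.60 (SE; adjusted p = 0.0028). Sptb, the beta chain of erythroid spectrin, read 9.30 and 10.52 at II+III and 14.91 in both arrays at IV, a change of 5.0 ± 0.57 or 32.1-fold (adjusted p = 0.0024). Groups without overlap were a condition of the choice for all 12 genes. Ypel4 (5.13), Btnl10, a butyrophilin-like gene (4.92), Samd11 (4.75), Sowaha (4.61) and Pheta2 (4.58) behaved alike in direction. Snx22, a sorting nexin, read 6.34 and 6.86 at II+III, both near background, and 11.52 and 11.72 at IV, so that its change of 5.02 is better given as at least 4.09. Abcb10, a mitochondrial inner membrane transporter needed for haemoglobin production, rose from 9.74 and 9.71 to 14.62 and 14.69. Abcb6, an ATP-binding cassette transporter linked to porphyrins, rose by at least 3.80. Cdc25b, a phosphatase that activates cyclin-dependent kinases at entry into mitosis, read 9.96 and 10.00, then 14.68 and 14.31 (4.52 ± 0.67, adjusted p = 0.0057). Fhdc1, itself a formin, read 10.20 and 11.11, then 15.15 and 15.09 (4.46 ± 0.51, adjusted p = 0.0024). Of these 12, Abcb6 alone lost its call when 1 of the 4 arrays was left out, with an adjusted p above 0.05 without DKO-IV replicate 2.

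Of the 12 largest falls, 4 were on the list of granulocyte progenitor markers (Ms4a3, Ctsg, Elane and Gstm1). Ms4a3, a membrane protein gene of granulocyte and monocyte progenitors, read 15.46 and 14.81 in DKO-II+III and 11.38 and 7.72 in DKO-IV, a fall by 5.59 ± 0.96 on the log2 scale (adjusted p = 0.0084). Ctsg, cathepsin G, read 15.05 and 13.05, then 10.67 and 6.93, and Elane, neutrophil elastase, 17.56 and 17.38, then 14.04 and 10.72. In these 3 genes the DKO-IV arrays differed from each other by more than 3, replicate 2 being the lower. Pglyrp1, a peptidoglycan recognition protein of neutrophil granules, read 15.80 and 15.90, then 11.83 and 10.74, and fell by 4.57 ± 0.56 (adjusted p = 0.0035). Trem3, a myeloid cell receptor, read 14.26 and 14.06, then 9.93 and 9.66. The other falls were Agpat2, an enzyme of glycerolipid synthesis (-5.20), Clec5a, a myeloid lectin receptor (-4.96, with a bound of -4.15 because both DKO-IV arrays were near background), Gstm1 (-4.56), Dhrs7 (-4.53), Mrgpra2b (-4.52), Tmem154 (-4.37) and Prss57, a serine protease (-4.36, bound -3.26). Clec5a, Pglyrp1, Dhrs7 and Trem3 passed without each of the 4 arrays in turn. The other 8 lost the call without at least 1 array: Ms4a3 without DKO-II+III replicate 1, Mrgpra2b without DKO-IV replicate 2, Agpat2 and Prss57 without either of those arrays, Elane and Ctsg without any but DKO-IV replicate 1, and Gstm1 and Tmem154 without any 1 of the 4.

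**Figure D2:**
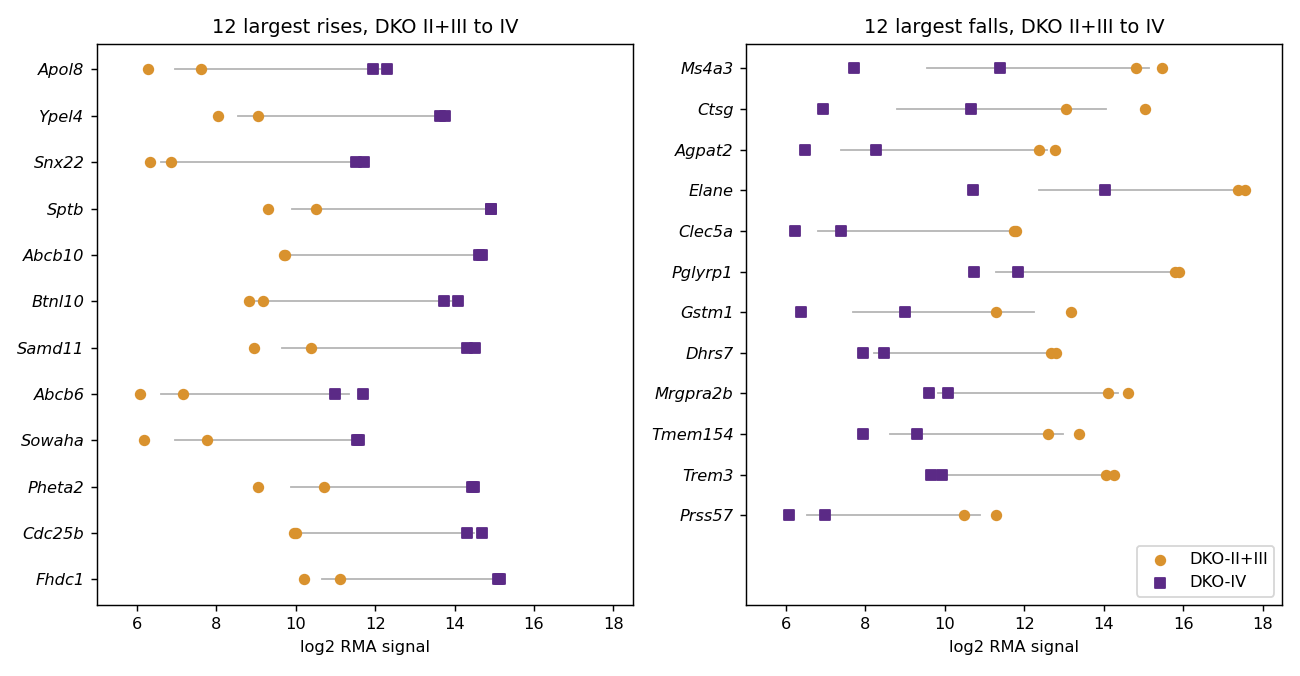
Log2 RMA signal of the 12 genes with the largest rises (left panel) and the 12 with the largest falls (right panel), 1 point per array: orange circles are the 2 DKO-II+III arrays, purple squares the 2 DKO-IV arrays, and the grey line joins the group means. For each gene the groups are separate, as the rule for choosing these genes required. The DKO-IV squares of Ms4a3, Ctsg and Elane lie apart from each other.

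Letters that GATA1 and KLF1 are known to bind were looked for in the 250 bases before the annotated starts of these genes, on both strands (RefSeq, GRCm38.p6). AGATAA, the GATA1 letters, was present for 4 of the 11 rising genes with a promoter entry and for 1 of the 10 falling genes, and for 10.2% of 15691 genes on the array with an entry. CCACCC, the KLF1 letters, was present for 6 of 11, 3 of 10 and 33.5%. CACGTG, an E-box, was present in neither set and in 7.92% of the genes. Stretches with the GATA1 letters are shown to place them next to the genes whose signals moved most; capitals mark AGATAA or its reverse complement TTATCT, in the direction of each gene, and none of these matches overlapped CCACCC. The stretches lie at chr11:58917864-58917929 (plus strand) for Btnl10, chr9:66069889-66069954 (minus strand) for Snx22, chr4:156255397-156255462 (minus strand) for Samd11, chr3:84479492-84479529 (minus strand) for Fhdc1 and chr7:18884630-18884689 (plus strand) for Pglyrp1, which fell. A match is a description of the letters only.
Btnl10: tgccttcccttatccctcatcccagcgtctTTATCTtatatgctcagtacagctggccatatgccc
Snx22: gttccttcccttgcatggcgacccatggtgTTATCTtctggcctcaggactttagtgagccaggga
Samd11: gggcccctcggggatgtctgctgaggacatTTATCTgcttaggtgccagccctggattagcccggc
Fhdc1: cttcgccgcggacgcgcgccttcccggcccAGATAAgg
Pglyrp1: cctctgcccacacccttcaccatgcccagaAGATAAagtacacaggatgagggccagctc

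Genes of the red cell membrane rose together: 20 of 25 measured members (80%) rose, 1 fell, and the median log2 change was 3.07 (0.06 over all probe sets). Besides Sptb, Dmtn, which encodes the actin-bundling protein dematin, read 11.42 and 12.36, then 16.20 and 15.97 (4.19 ± 0.43, adjusted p = 0.0024). Art4, which carries the Dombrock blood group in humans, read 9.93 and 10.91, then 14.63 and 14.97 (4.38 ± 0.50). Slc4a1, the band 3 anion exchanger, read 15.17 and 15.52, then 17.51 and 17.38 (2.10 ± 0.32, adjusted p = 0.0060). Gypc, glycophorin C, rose by 4.39 ± 0.60 and Icam4, the Landsteiner-Wiener antigen, by 3.33 ± 0.45. The glucose transporters moved apart: Slc2a1 (GLUT1) read 14.52 and 15.48, then 11.74 and 11.45, and fell by 3.41 ± 0.46 (adjusted p = 0.0050), while Slc2a4 (GLUT4) read 6.60 and 6.58, then 10.85 and 10.55, a rise of at least 3.17. Cd47, the signal that restrains phagocytosis, changed by 1.00 ± 0.34 and did not pass (adjusted p = 0.10). Leaving out DKO-II+III replicate 1, DKO-II+III replicate 2, DKO-IV replicate 1 or DKO-IV replicate 2, the order used for all such counts below, left 11, 17, 11 and 9 rises, and Slc2a1 fell in each case.

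Transcription factors and receptors of the erythroid programme rose in 13 of 28 members, none fell, and the median was 1.79. Klf1, an activator of globin and membrane genes, read 11.65 and 13.05, then 15.27 and 15.35 (2.96 ± 0.53, adjusted p = 0.0095). Gata1 read 8.28 and 8.91, then 11.05 and 11 (2.44 ± 0.46, adjusted p = 0.012). Epor, the erythropoietin receptor, read 9.57 and 10.16, then 13.56 and 13.45 (3.64 ± 0.44, adjusted p = 0.0032). Every array of stage IV stood above both of stage II+III for these 3 genes. The same held for all called rises and for 31.6% of all probe sets. Sox6 (2.98), Hemgn (3.05), Nfe2 (3.0) and Klf3 (2.95) rose as well. Kit, which is lost as erythroblasts mature, had a log2 change of -3.27 ± 2.19 and did not pass (adjusted p = 0.43). Leaving out each array left 8, 12, 6 and 2 rises, and Epor and Sox6 passed in each case.

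Haem synthesis rose in 8 of 18 measured members, 1 fell, and the median was 1.60. Alad, Cpox and Ppox, enzymes between aminolaevulinate and protoporphyrin, rose; Alad read 12.86 and 14.27, then 16.30 and 16.34 (2.75 ± 0.44, adjusted p = 0.0068). The 2 forms of the first enzyme differed. Alas2, the erythroid form, was already high at 15.74 and 17.28, reached 17.55 and 17.79, and did not pass (1.16 ± 0.41, adjusted p = 0.12), and Alas1, the form of other tissues, read 14.14 and 13.89, then 10.02 and 10.70, and fell by 3.66 ± 0.89 (adjusted p = 0.033). Fech, which inserts the iron, changed by 1.67 ± 0.48 (adjusted p = 0.063). Among iron genes 4 of 19 rose and none fell (median 0.32): Tfrc, the transferrin receptor, read 11.28 and 12.37, then 15.04 and 15.26 (3.33 ± 0.74, adjusted p = 0.022), and Erfe, the erythroid hormone that lowers hepcidin, read 6.65 and 7.65, then 10.18 and 11.41 (3.65 ± 0.62, adjusted p = 0.0080). Slc11a2, which moves iron out of endosomes (2.53), and Slc48a1, a haem transporter (1.80), also rose. With each array left out there were 3, 9, 3 and 1 rises for haem synthesis, with Abcb10 passing in each case, and 0, 3, 1 and 0 for iron; Alas1 passed in none of the 4 (adjusted p 0.11 to 0.16).

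Of 12 globin genes looked for, 5 had a probe set of their own. Hbq1a and Hbq1b, the theta globins, rose: Hbq1b read 10.74 and 11.77, then 15.44 and 15.14 (4.03 ± 0.60, adjusted p = 0.0057), and Hbq1a rose by 3.68; neither passed without DKO-IV replicate 2. The 3 embryonic globin genes were near background at every array, with changes of 0.17 to 0.77. The adult alpha and beta globin genes were not analysed here. Genes of organelle clearance and terminal maturation rose in 15 of 36 members, with none falling and a median of 2.25. Trim58, a ubiquitin ligase of late erythroblasts, read 6.61 and 7.96, then 11.74 and 11.54 (4.36 ± 0.62, adjusted p = 0.0051), and Rnf123, another ubiquitin ligase, 10.40 and 10.72, then 14.62 and 14.70 (4.10 ± 0.53). Ube2o, a ubiquitin-conjugating enzyme of reticulocyte remodelling, rose by 2.95 and Xpo7, a nuclear exportin, by 2.77. Bnip3l, the receptor for mitochondrial removal, changed by 0.99 ± 0.43 and did not pass (adjusted p = 0.20). Leaving out each array left 9, 14, 5 and 3 rises.

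Genes of mitosis were higher at stage IV. Of 29 measured G2 and M genes, 17 rose, none fell, and all 29 log2 changes were positive (1.10 to 3.88; median 2.50). Bub1, a spindle checkpoint kinase, read 10.49 and 9.12, then 12.53 and 12.70 (2.81 ± 0.58, adjusted p = 0.018). Ect2, which activates RhoA at the cleavage furrow, read 7.89 and 7.05, then 10.98 and 11.42 (3.74 ± 0.66), and Cdc25c rose by at least 3.15. The proliferation marker Mki67 was 16.33 and 16.52, then 17.87 and 17.82, and did not pass (1.42 ± 0.78, adjusted p = 0.32), nor did Plk1 (2.31 ± 0.67, adjusted p = 0.065). Of 28 DNA replication genes 7 rose and none fell, all with positive changes (median 1.58); Orc1, a subunit of the origin recognition complex, rose by 2.42 and Tyms, thymidylate synthase, by 1.94. Genes of histones and their processing rose in 6 of 14 members (median 1.40), H3c1 by at least 2.41. Cell cycle inhibitors rose too, in 4 of 17 members: Cdkn1b (p27) read 10.72 and 10.00, then 12.76 and 12.72 (2.38 ± 0.45, adjusted p = 0.012), and Cdkn2c (p18) rose by 2.52. Without each array in turn there were 7, 5, 3 and 0 rises for G2 and M, none in any case for DNA replication, 0, 1, 0 and 0 for histones, and 2, 3, 0 and 0 for inhibitors. When DKO-IV replicate 2 was the array left out, the 4 medians were 2.50, 1.64, 1.45 and 1.12; without the DKO-I array that stood apart the rises were 28, 24, 11 and 8.

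Among 30 genes of formins and cytokinesis 6 rose and 3 fell (median -0.58), and formins moved in different directions. Fhdc1, given above and not in the list, rose, as did Diaph3, an mDia relative named after its values were seen, which read 12.48 and 13.04, then 15.10 and 14.99 (2.29 ± 0.52, adjusted p = 0.025). Diaph2 read 10.66 and 10.93, then 8.04 and 8.16, and fell by 2.69 ± 0.70 (adjusted p = 0.044), and Fmnl1, a formin of blood cells, fell by 2.81 ± 0.62 (adjusted p = 0.022). Both falling formins lost the call whichever of the 4 arrays was left out, and Diaph2 also after quantile normalization. Myh10, non-muscle myosin IIB, rose by 3.66 ± 0.53, Anln, anillin, by 3.18 and Cit, citron kinase, by 2.81, and Rac2, a GTPase of blood cells, fell by 1.85. Rac2 too lost the call whichever array was left out. Of 30 genes of enucleation and chromatin condensation, which share several of these members, 10 rose and 2 fell (median 1.05); the condensin subunit gene Ncapd2 rose by 2.60. Leaving out each array left 3, 3, 2 and 0 rises and 1, 0, 0 and 0 falls for formins and cytokinesis, and 4, 5, 3 and 1 rises for enucleation, where Trim58 passed in each case.

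Granulocyte genes fell. Of 16 neutrophil markers 11 fell (68.8%), none rose, all 16 log2 changes were negative, and the median was -3.42. S100a8, a calcium-binding protein of the neutrophil cytosol, read 17.71 in both DKO-II+III arrays, then 15.31 and 14.76 (a fall by 2.68 ± 0.71, adjusted p = 0.046). Padi4, which citrullinates histones, read 10.91 and 10.93, then 7.17 and 6.01 (bound -3.30), Mmp8, neutrophil collagenase, 14.22 and 14.25, then 10.55 and 9.70, and Ltf, lactoferrin, 14.74 and 14.87, then 11.18 and 10.70. S100a8, Mmp8 and Ltf lost the call whichever of the 4 arrays was left out, and Padi4 without any but DKO-IV replicate 1. S100a8 also lost it after centring on array medians and without the intensity trend of the fit. The signals were still high at stage IV: the log2 of the summed signal of the 16 genes was 20.51 and 20.53 in DKO-II+III and 18.04 and 17.51 in DKO-IV, against 17.50 and 18.72, then 13.09 and 15.38 in double wild type. The DKO-II+III arrays thus lay above both DWT-II+III arrays and the DKO-IV arrays above both DWT-IV arrays. When each array was left out there were 2, 1, 2 and 0 falls, and there were 14 without the DKO-I array that stood apart.

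**Figure D3:**
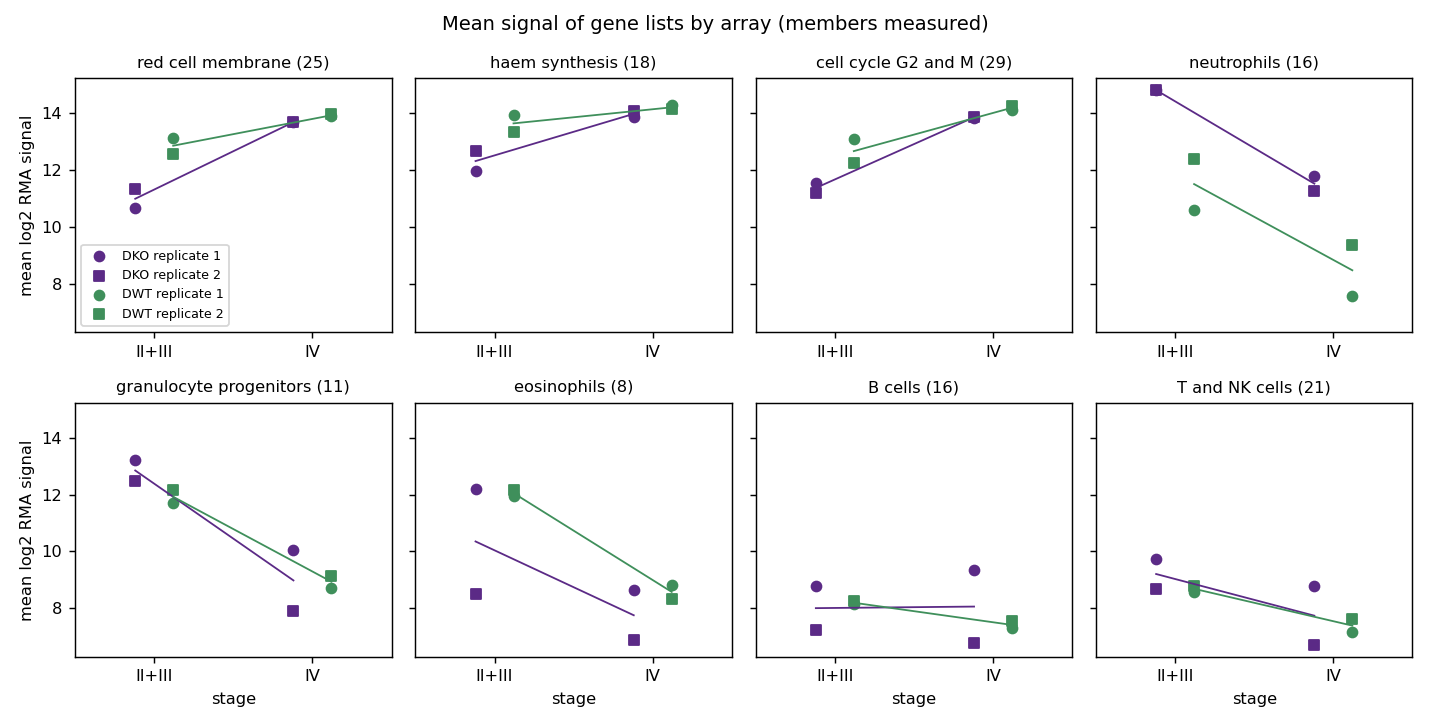
Mean log2 signal (vertical) of 8 gene lists at stages II+III and IV, 1 point per array, purple for DKO and green for DWT, circles for replicate 1 and squares for replicate 2; lines join group means. DKO replicate numbers follow accession order and do not pair arrays, and DWT replicate 1 is male and replicate 2 female at both stages. Neutrophil genes go from 14.80 and 14.81 to 11.78 and 11.25 in DKO, and eosinophil genes lie apart between the DKO-II+III arrays at 12.19 and 8.51.

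Granulocyte progenitor markers fell in 5 of 11 members, with a median of -4.56, and the DKO-IV arrays differed: their log2 summed signals were 15.97 and 12.55, from 19.17 and 18.57 at II+III. Mpo, myeloperoxidase, read 17.37 and 16.64, then 14.70 and 10.86, and did not pass (-4.23 ± 1.68, adjusted p = 0.16). Of 22 monocyte and macrophage markers 5 fell and none rose (median -1.25). Ly6c2, of inflammatory monocytes, read 17.24 and 16.66, then 14.19 and 11.16 (-4.27 ± 0.81, adjusted p = 0.012). Cd14, a receptor for lipopolysaccharide, read 12.35 and 13.12, then 8.71 and 9.68 (-3.54), and Lyz2, lysozyme, fell by 2.89. The mean log2 signals of the 22 markers were 10.19 and 11.27 at II+III, then 9.19 and 9.21 at IV. Their median log2 change ran from -2.45 to -0.64 when 1 array was left out. The NADPH oxidase of phagocytes fell in 4 of 5 members: Ncf1 (-3.79), Ncf4 (-3.24), Cyba (-2.72) and Rac2 (-1.85). Its catalytic subunit Cybb read 17.13 and 17.29, then 15.22 and 15.02, and did not pass (-2.09 ± 0.70, adjusted p = 0.099). Leaving out each array left 0, 1, 4 and 1 falls for progenitors, 4, 2, 3 and 0 for monocytes and macrophages, and 2, 0, 1 and 0 for the oxidase.

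Markers of other blood cells differed between arrays of the same stage. No B cell marker of 16 passed (median 0.38), and Ebf1, a B lineage transcription factor, read 11.56 and 8.39, then 12.71 and 8.78. At II+III, Cd72, Blnk and Cd79b read higher in replicate 2 and the other markers lower. Cd72 read 8.36 and 12.67, then 9.02 and 11.21 at IV. The list's log2 summed signals were 13.85 and 13.52 at II+III, then 14.58 and 12.18 at IV. Its mean log2 signals lay further apart at II+III than those sums, at 8.79 and 7.22, then 9.35 and 6.77 at IV. The list's median log2 change ran from -1.42 to 1.2 when 1 array was left out. Of 8 eosinophil markers none passed (2 fell without DKO-II+III replicate 2), all had negative changes, and the summed signals were 17.85 and 13.26, then 14.14 and 10.85. T and NK cell markers had 1 fall in 21, Tbx21 (-1.71 ± 0.33, adjusted p = 0.014), at or near background in every array (0, 0, 9 and 0 falls with each array left out); the sums were 16.40 and 15.45, then 14.79 and 12.15. No mast cell and basophil, plasma cell or dendritic cell marker passed. Stem and progenitor cells had 1 fall, Cd48 (-2.66), stroma 1, Vim (vimentin), and megakaryocytes 1 rise, Ppbp. The falling shares were 4.76% for T and NK cells, 9.09% for stem and progenitor cells and 6.67% for stroma, beside 3.66% of all probe sets. For megakaryocytes 7.14% rose, beside 4.11% of all. With 1 array left out, Cd48 missed the threshold without DKO-IV replicate 2, Vim in all 4 cases (adjusted p 0.056 to 0.11), and Ppbp in every case but that of DKO-II+III replicate 1. These lists were meant as markers of cell types other than erythroblasts. They are not exclusive: Kit, listed for mast cells and for stem cells, is also lost as erythroblasts mature. Many of the listed genes moved with the step or with the array beside the results above, and their part in those results was not tested.

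Inflammatory genes went down with stage or did not pass. Of 28 NF-kB inflammatory genes 7 fell and none rose (median -1.29): Cxcl2, a neutrophil-attracting chemokine, read 10.81 and 11.49, then 7.29 and 7.73 (-3.64 ± 0.40, adjusted p = 0.0024), and Ccl3, another chemokine (-3.62), Il1b, interleukin 1 beta (-2.25), and Rel, an NF-kB subunit (-2.46), fell as well. Of 21 IL-6 and STAT3 genes 6 fell and none rose (median -1.45). Il6ra, the IL-6 receptor, read 12.58 and 12.60, then 9.73 and 9.23 (-3.11 ± 0.81, adjusted p = 0.043), and Stat3 fell by 2.45 ± 0.57. Il6ra lost the call whichever of the 4 arrays was left out, after centring on array medians, and with sex as a covariate. Of 18 listed targets of miR-146a 4 fell and none rose (median -0.80). They were Camk2d (-2.66), Tlr4 (-2.52), Tnf (-2.55, with both DKO-IV arrays near background and a bound of -0.66) and Smad4 (-1.85). Traf6, the signalling adaptor best known as a target, read 9.42 and 9.15, then 8.6 and 8.37, and did not pass (-0.80 ± 0.50, adjusted p = 0.39). The neutrophil and monocyte markers above fell over the same step, and how far they carry these lists was not tested. The leave-outs gave 4, 1, 2 and 1 falls for NF-kB genes, Cxcl2 in each case, 2, 0, 1 and 0 for IL-6 and STAT3 genes, and 2, 0, 0 and 0 for miR-146a targets.

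**Figure D4:**
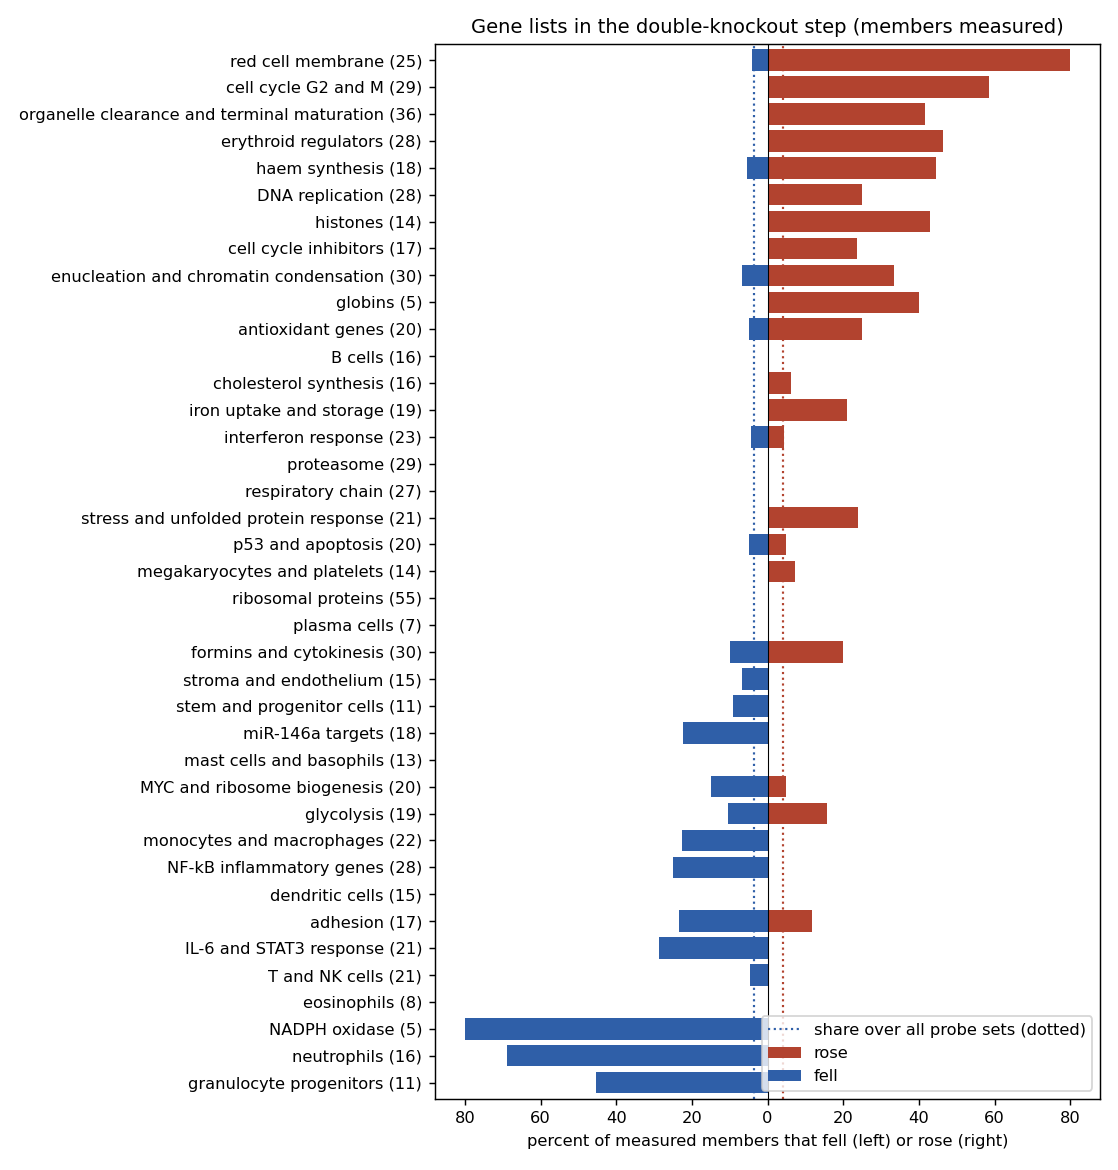
Percent of measured members that rose (right, red) or fell (left, blue) from DKO-II+III to DKO-IV for 39 gene lists, ordered by median log2 change with the number measured in brackets; dotted lines mark the shares over all probe sets, 4.11% and 3.66%. Red cell membrane reaches 80% rising and neutrophil markers 68.8% falling.

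Housekeeping sets had medians near that of all probe sets. None of 55 ribosomal protein genes passed. Their log2 changes ran from -0.81 to 0.28, 50 of them negative, with a median of -0.19 (0.04 to -0.46 when 1 array was left out). None of 27 respiratory chain genes (-1.81 to 0.46, median -0.08) or 29 proteasome genes (-2.99 to 2.17, median -0.06) passed. Of 20 MYC and ribosome biogenesis genes 3 fell and 1 rose (median -0.97); Polr1b, of RNA polymerase I, fell by 2.57 ± 0.40 (adjusted p = 0.0063) and Odc1, ornithine decarboxylase, rose by 2.40. Adhesion molecules fell in 4 of 17 and rose in 2 (median -1.34): Cd44, whose loss marks erythroid maturation in mice, read 12.62 and 13.16, then 10.41 and 10.61 (-2.38 ± 0.46, adjusted p = 0.014), Itga5 (bound -2.10), Itgam and Cd9 fell, and Icam4 and Cd36 rose. Leaving out each array left 3, 1, 1 and 0 falling adhesion genes and 1 rising in each case, Icam4, and 1, 3, 2 and 0 falling MYC and ribosome biogenesis genes; Odc1 did not pass without either DKO-IV array.

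The same step in double wild type was set beside the DKO step to ask whether the genotypes differed. In double wild type 311 probe sets rose and 699 fell (5.16% in all, 1.59% rising and 3.57% falling; 446 and 570 after quantile normalization), with group means from arrays other than those of the DKO step; both steps take their spread from the same fit of 12 arrays. The DKO and DWT log2 changes correlated at r = 0.82 across probe sets that are not independent. Of the 1520 DKO calls, 98.2% had the same sign in double wild type, against 75.2% of all probe sets. The 615 called in both made up 40.5% of the DKO calls and 60.9% of the DWT calls, all with the same sign. The rises called in DKO had a median of 2.32 there and of 1.48 in double wild type, and the falls -2.31 and -2.13; since these genes were chosen on the DKO values, the medians are a description.

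No probe set passed the test of the difference between the steps (limma interaction contrast, 0 of 19572, percent called 0), with 662 at an unadjusted p under 0.05, where the threshold alone would give 978.6, and a smallest adjusted p of 0.87. The median standard error of the difference was 0.53 and its unadjusted 95% interval spans about 1.17 to either side; differences well beyond that span also missed the threshold after adjustment, as the genes below show. The 5 smallest unadjusted p-values, none a call, belonged to Ceacam10, Il1r2, Slfn4, Fn3krp and Lrrc56. Slfn4, a myeloid Schlafen gene, read 10.24 and 11.10, then 7.67 and 7.48 in DKO, and 6.81 and 6.34, then 6.81 and 6.64 in DWT, where it lay near background (difference of the log2 changes -3.24, 95% interval -4.49 to -1.99, adjusted p = 0.87). Il1r2, a decoy receptor for interleukin 1, read 10.01 and 9.91, then 6.91 and 7.21 in DKO, and 6.29 to 6.49 in every DWT array (-2.95, interval -4.03 to -1.87). Only its DKO-II+III signals were above background. Fn3krp, a ketosamine kinase gene, read 9.59 and 9.15, then 13.84 and 13.64 in DKO and 12.92 and 12.32, then 13.88 and 14.14 in DWT (2.98, interval 1.76 to 4.20). Lrrc56 was the reverse case, at 6.13 to 6.74 in DKO, and at 6.92 in both DWT-II+III arrays, then 9.50 and 9.11. Only its DWT-IV signals were above background, so a change in DKO could not be read. Ceacam10 differed by -3.55 (interval -4.74 to -2.36), with only the DKO-II+III arrays above background.

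**Figure D5:**
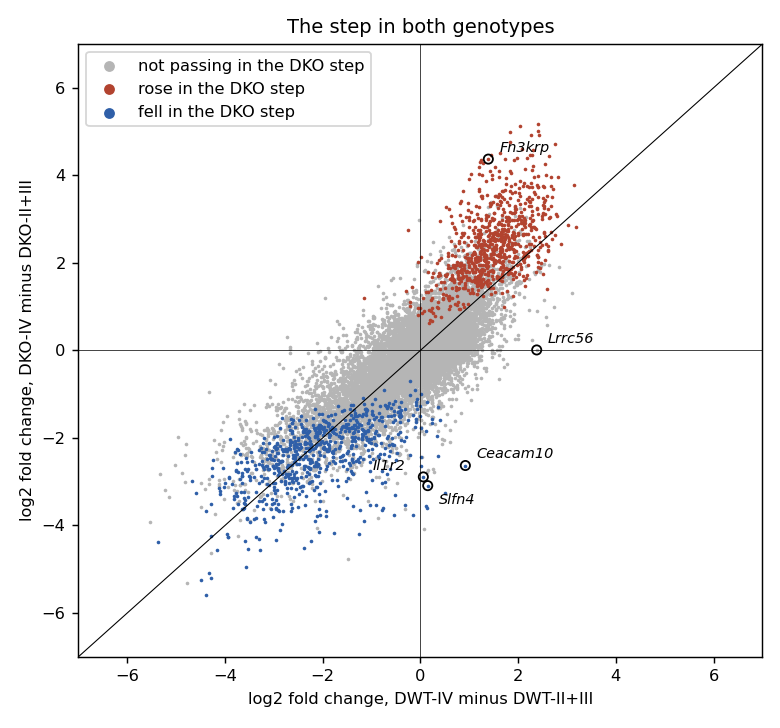
Log2 fold change from II+III to IV in DKO (vertical) against DWT (horizontal), 1 point for each of 19572 probe sets, coloured by its call in the DKO step; the diagonal marks equal changes. The 5 ringed genes have the smallest unadjusted p-values for the difference, and none passed after adjustment.

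Among the genes that led the DKO step, several lay further below double wild type at II+III than at IV. Sptb read 14.27 and 13.16 in DWT-II+III, above the 9.30 and 10.52 of DKO-II+III, and 15.60 and 15.50 in DWT-IV, so that its log2 change was 1.84 ± 0.57 (adjusted p = 0.092) against 5.0 in DKO; the difference of 3.17 had an interval of 1.39 to 4.95 and an adjusted p of 1.0. Fhdc1 differed by 3.02 (1.44 to 4.61) and Ypel4 by 3.09 (1.27 to 4.92), likewise without passing. These genes were chosen for large DKO changes, which are part of each difference, so their differences and intervals are a description. The mean log2 signal of the red cell membrane list was 10.65 and 11.32 in DKO-II+III and 13.13 and 12.57 in DWT-II+III, and 13.67 and 13.69 against 13.89 and 13.95 at IV. For G2 and M genes the means were 11.55 and 11.18 against 13.08 and 12.24, then 13.84 and 13.86 against 14.11 and 14.26. In both lists the DKO-II+III arrays lay below both DWT-II+III arrays, and each of them correlated more with the DWT-I arrays than with the DWT-II+III arrays; whether the labelled stages hold the same mixture of cells in the 2 genotypes was not tested.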

How the data were processed

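Signals were deposited on the log2 scale, summarised by the authors in Expression Console of Affymetrix with RMA (robust multi-array average), per the submitters' processing notes, and no version is given in the sources used here. These values were used without further normalization. Of 28846 probe sets, 22206 measured transcripts and 19572 carried 1 gene symbol (19505 genes, 55 with several probe sets, for which the probe set of highest mean signal was named); the 2634 without a symbol entered an alternative only. Symbols came from the platform annotation.

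The 12 in vivo arrays (6 groups of 2) were fitted together with limma 3.58.1 in R 4.3.3 (lmFit, eBayes with an intensity trend; 6 residual and 4.52 prior degrees of freedom), with 2-sided p-values, Benjamini-Hochberg adjusted over 19572 probe sets. The procedure was tested on simulated data with independent noise of equal spread in every array. Those data held no outlying array and no shared mice, so the test cannot show how the procedure handles them. A probe set near background in both arrays of 1 group has its change also given as a bound against the background level. The rule for named genes took Diaph1, the 12 highest and 12 lowest passing changes without overlap and above background, the 5 smallest p-values of the difference of steps, and from each list its anchors, up to 6 passing members and up to 2 others of highest signal; exceptions are named in the text. Lists are described by counts and medians, without a set test. The lists and comparisons were chosen with earlier results of these data known. The number of arrays limits the precision. Alternatives covered normalization, array weights, filters, sex, the arrays fitted and leaving out each array; a lone array left in a group takes its spread from the remaining groups. Sequences were copied from RefSeq tables with Python 3.11.15.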

Additional observations from a re-analysis of the deposited data

Results flagged for a closer look

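In 3 named genes every DKO array of stage IV lay on one side of the DKO-II+III arrays and every DWT array of stage IV on the opposite side of the DWT-II+III arrays. None of these differences passed the interaction test over 19572 probe sets (limma, Benjamini-Hochberg). Groups of 2 arrays are too small for a test of single outlying arrays. Cat, catalase, read 14.42 and 15.41, then 15.58 and 15.81 in DKO, and 16.63 and 16.70, then 16.46 and 16.44 in DWT, a difference of the log2 changes of 0.99 (95% interval -0.10 to 2.08, adjusted p = 1.0). Ppbp, a platelet chemokine, read 6.42 and 5.64, then 7.70 and 7.25 in DKO, and 7.33 and 7.48, then 7.23 and 7.24 in DWT, a difference of 1.62 (0.56 to 2.68, adjusted p = 1.0), with 1 of its 4 DKO signals above background. Ceacam10, a member of the carcinoembryonic antigen family, read 7.77 and 8.32, then 5.47 and 5.35 in DKO, and 4.83 and 4.47, then 5.69 and 5.44 in DWT, a difference of -3.55 (-4.74 to -2.36, adjusted p = 0.87); only the DKO-II+III arrays were above background, so the DKO fall has a bound of -0.42.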

How the results depend on the processing

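The 1520 calls of the DKO step moved by over 1.5 times in these fits: 0 with only the 6 DKO arrays, 2904 with all 20 arrays, 3612 without both DKO-I arrays, 3618 without the DKO-I array that stands apart, 2997 with array quality weights, and 2935 with only the 8 arrays of stages II+III and IV, a fit chosen after seeing the data; leaving out 1 of the 4 arrays gave 157 to 630. The 8 other planned fits gave 1138 to 1988 calls, and the DKO arrays without DKO-I replicate 2, added after seeing the data, gave 1892. The DWT step, 1010 calls, gave 2465, 3273, 3272, 3195 and 2389 in the same order of fits from all 20 arrays on, and 0 to 443 when 1 array was left out. The difference of steps had 0 calls in each fit except that of all 20 arrays, which gave 5 (Cxcl2, Ceacam10, Slfn4, Fn3krp and Dmtn). No named gene changed direction where it had a call. Of 151 named genes that passed, 32 passed without each of the 4 arrays, and 119 lost the call without at least 1. The cause of these losses was not tested beyond the lost array itself. The median change of all probe sets was 0.06 as deposited, 0.03 after quantile normalization and 0.10 after centring. No paired analysis was possible because, in the DKO step, the labels do not tie arrays of both stages to a mouse, and numbers given in accession order do not pair arrays. In DWT, with 1 male and 1 female among 2 mice, sex as a covariate is the mouse block: it gave 688 DWT calls, 1138 DKO calls and 0 for the difference. Signals near background limit small fold changes.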

Other observations

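Several gene groups outside the comparisons above mixed rises and falls in the DKO step. Of 19 glycolysis genes 3 rose and 2 fell (median log2 change -1.16): Hk1, the hexokinase of red cells, read 11.59 and 10.56, then 14.71 and 15.18 (3.87 ± 0.57, adjusted p = 0.0057), and Slc16a1, a lactate transporter, rose by 3.25, while Ldha (-1.46) and Slc2a1 (-3.41) fell. Pkm, the pyruvate kinase of non-erythroid tissues, read 14.70 and 13.33, then 11.54 and 11.73, and did not pass (-2.38 ± 0.97, adjusted p = 0.18). Of 20 antioxidant genes 5 rose and 1 fell (median 0.59). Gclc, for glutathione synthesis, read 10.47 and 10.53, then 13.78 and 13.52 (3.15 ± 0.43, adjusted p = 0.0050), Gclm, its partner, rose by 2.38, and Gsr, glutathione reductase, fell by 2.28. With each array left out in the order used above, 2, 3, 1 and 1 glycolysis genes rose and 1 fell each time (Slc2a1), and 1, 4, 2 and 1 antioxidant genes rose (Gclc each time).

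Of 21 stress and unfolded protein response genes 5 rose and none fell (median -0.08). They included Eif2ak1, the haem-regulated kinase of erythroid cells, which read 12.25 and 12.92, then 15.42 and 14.92 (2.59 ± 0.43, adjusted p = 0.0074), Ddit3 (2.9), Ppp1r15a (2.99), Asns (2.06) and Trib3 (2.03), while the chaperone gene Hspa5 changed by 0.20 ± 0.60 (adjusted p = 0.89). The rises numbered 1, 2, 0 and 0 with each array left out. Of 23 interferon response genes 1 rose, Isg15 (2.21, above background in 1 of the 4 arrays), and 1 fell, Ifitm3 (-2.29), and of 20 p53 and apoptosis genes 1 rose, Sesn2 (2.63), and 1 fell, Pmaip1 (-1.60), each above background in 1 of the 4 arrays. These shares, 4.35% and 4.35% for interferon and 5% and 5% for p53, lay near the 4.11% rising and 3.66% falling of all probe sets. For cholesterol synthesis, given below, 6.25% rose. Isg15 did not pass without DKO-II+III replicate 1 or DKO-IV replicate 1, Ifitm3 passed only without DKO-IV replicate 1, Sesn2 was lost without DKO-IV replicate 1, and Pmaip1 was lost in all 4 cases. The interferon median was -0.04 and became 0.75 without DKO-IV replicate 2. Of 16 cholesterol synthesis genes 1 rose, Fdft1 (2.29), which with 1 array left out passed only without DKO-II+III replicate 2; the list's median of 0.34 ran from -0.11 to 0.45.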
